A study of Rattus norvegicus with 3 samples.

Results

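Heme synthesis, ferritin and iron uptake were followed in rat platelet RNA through 10 genes, chosen by name: Alas2, Urod, Uros, Cpox and Ppox of heme synthesis, Blvrb of heme breakdown, Slc25a37 of mitochondrial iron import, the ferritin genes Fth1 and Ftl1, and Tfrc of cellular iron uptake. The choice was made with earlier results of these data known, so counts over these genes give no independent support. All 10 were found among the 15037 named genes of the deposited matrix, each through a single feature of the array. Total RNA came from peripheral platelets of normal F344 rats, an inbred strain, and was hybridised to 3 arrays. These held platelets loaded with lenvatinib, platelets loaded with sorafenib, and control platelets. Both drugs are kinase inhibitors, and each was given to isolated platelets outside the body at 10 µg for 30 minutes at 37 °C and then washed out. Incubation and washing are described for the drug-loaded groups, and the labels leave unsaid if control platelets went through both, so drug and handling cannot be told apart. Suspensions from 5 rats were pooled in each group, so each group is 1 array with no replicate, and every difference given here is a description without error or p-value. A change in the number of contributing cells and a change in RNA per cell cannot be told apart in such bulk RNA.

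Heme is built in a chain of enzymes that starts in the mitochondrion, passes through the cytosol and ends in the mitochondrion again. Developing red cells run this chain at a high rate for hemoglobin, with iron taken up through the transferrin receptor and carried into the mitochondrion by mitoferrin. Ferritin, a shell of heavy and light chains, stores the iron that is not used. The transcripts of Alas2, Fth1, Ftl1 and Tfrc are controlled after transcription by iron regulatory proteins, which sense the iron of the cell. Platelets lack a nucleus, and their RNA is inherited from the megakaryocyte that released them.

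Values are log2 signals as deposited. The 1153 negative control features had a 95th percentile of 7.69 and a median of 4.13 over the 3 arrays, and 1961 of the 15037 genes reached that 95th percentile in their mean signal, which is used here as the background limit. The scale ended at a ceiling of 19.93, where a value is only a lower bound. Exactly equal values on all 3 arrays were found for 17.3% of genes, and on at least 2 arrays for 57.6%, so a tie does not show an equal amount of transcript. Signals of different features are not on a common scale per transcript, and no gene's level is ranked against another's. The labelled cell type was matched by its markers: all 8 measured platelet markers of 13 listed were above the background limit, and 2 of them, Pf4 and Clec1b, were at the ceiling on all 3 arrays. The mean log2 signal of the other 6 was 18.57 with lenvatinib, 18.59 with sorafenib and 18.58 in control.

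Of the 10 genes, 3 reached the background limit in their mean over the arrays, Alas2, Fth1 and Ftl1. Both ferritin genes were at the ceiling on all 3 arrays, which leaves Alas2 as the sole gene of the set with a signal above the limit that could also move in both directions. A further 4 genes, Urod, Cpox, Slc25a37 and Tfrc, lay below the limit but reached the median signal of all genes, 4.25. Uros, Ppox and Blvrb lay below that median as well.

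The windows before the annotated gene starts of Alas2 and Urod are shown because these are the heme synthesis genes at or above the median signal for which the promoter table has an entry. The sequences are RefSeq's for build GRCr8, 250 bases each, with matches to the GATA-factor motif in capitals. GATA1 is the factor that drives Alas2 in red-cell precursors.
Alas2: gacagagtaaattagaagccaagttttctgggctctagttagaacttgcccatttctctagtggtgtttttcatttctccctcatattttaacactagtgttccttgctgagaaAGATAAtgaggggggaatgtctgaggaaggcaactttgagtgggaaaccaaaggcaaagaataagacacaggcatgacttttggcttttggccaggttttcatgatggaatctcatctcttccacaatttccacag
Urod: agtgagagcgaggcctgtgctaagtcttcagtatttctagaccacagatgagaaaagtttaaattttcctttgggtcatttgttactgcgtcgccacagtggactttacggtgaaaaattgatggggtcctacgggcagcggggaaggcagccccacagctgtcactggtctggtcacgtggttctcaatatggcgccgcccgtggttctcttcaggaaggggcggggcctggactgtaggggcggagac
The Alas2 window is chrX:22895200-22895449 on the + strand and the Urod window is chr5:135705381-135705630 on the - strand. The letters searched were AGATAA and the forms of it that begin with T, end with G, or do both, on either strand. Alas2 had 1 match, AGATAA, starting 136 bases before the annotated start, and Urod had 0. Such a match is present in 27.0% of all 33469 windows of that length before annotated starts. An ATG follows 15 bases after the annotated Alas2 start, and the Alas2 window ends in cag, as introns often do. The window may thus lie within the gene and not be its promoter. Whether transcripts begin at that start in these cells was not tested, nor whether GATA1 binds the match. Windows were also found for Blvrb, Ppox, Tfrc and Uros, each with 0 matches to these letters. The antioxidant response motif TGACNNNGC, to which BACH1 and NRF2 bind, was in 0 of the 6 windows and in 10.1% of all windows. A missing match says only that those letters are not in the window.

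Alas2, the red-cell form of the enzyme that makes aminolevulinic acid and sets the pace of heme synthesis, read 12.25 with lenvatinib, 12.08 with sorafenib and 12.09 in control. The lenvatinib array was the high one, and the sorafenib and control arrays lay within 0.01 of each other. The difference was 0.16 for lenvatinib minus control, or 1.12-fold, and -0.01 for sorafenib minus control. An absolute difference at least as large as that of lenvatinib from control was found for 42.3% of the 1961 genes above the background limit, whose differences had an SD of 0.27 over genes. The size of the Alas2 difference was therefore common among well detected genes on these arrays.

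The 4 later enzymes among the 10 genes were below the background limit. Urod, uroporphyrinogen decarboxylase of the cytosol, read 6.98 with lenvatinib, 6.97 with sorafenib and 7.06 in control, and 7.46% of the negative control features had a mean at least as high. Both drug arrays were below control for Urod, with differences of -0.08 for lenvatinib and -0.10 for sorafenib. Uros, uroporphyrinogen synthase, read 3.09 with lenvatinib and 3.06 both with sorafenib and in control. Cpox, coproporphyrinogen oxidase, read 5.31 on all 3 arrays. Ppox, protoporphyrinogen oxidase, read 3.64 with lenvatinib, 3.69 with sorafenib and 3.62 in control. For Uros and Ppox, 88.5% and 67.1% of negative control features had a mean at least as high, so these readings lie within the background. Over the 5 heme synthesis genes the median difference was 0.020 for lenvatinib minus control and 0 for sorafenib minus control, and the median over all genes was 0 in both.

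**Figure D1:**
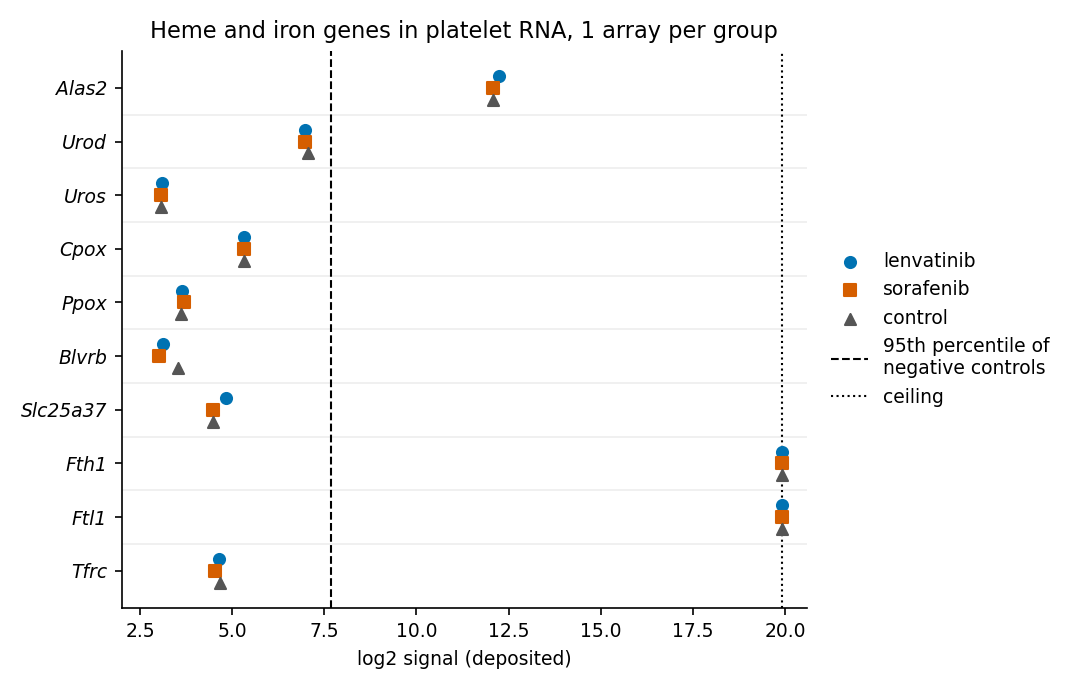
Deposited log2 signal (horizontal axis) of the 10 genes, with a circle for the lenvatinib array, a square for the sorafenib array and a triangle for the control array. The dashed line is the 95th percentile of negative control features, 7.69, and the dotted line is the ceiling, 19.93. Alas2 alone lies between the lines on all 3 arrays, and Fth1 and Ftl1 lie on the ceiling.

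Fth1 and Ftl1, the heavy and light chains of ferritin, each read 19.93 with lenvatinib, with sorafenib and in control. They are among the 14 genes at the ceiling on all 3 arrays, so their transcripts gave strong signal and no difference can be read in either direction. Ferritin genes have many copies in rodent genomes. The RefSeq gene table of GRCr8 names 6 other genes after Fth1, of which 5 are pseudogenes, and 21 after Ftl1, of which 15 are pseudogenes. Whether the features also detect these copies was not tested, and both readings are uncertain on that account.

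The iron import genes were below the background limit. Slc25a37, mitoferrin, which carries iron into the mitochondrion of red-cell precursors, read 4.84 with lenvatinib and 4.49 both with sorafenib and in control. Lenvatinib was the high array, by 0.35 or 1.27-fold against either of the others. An absolute difference that large between the lenvatinib and control arrays was seen in 15.2% of all genes, and 36.8% of negative control features had a mean signal at least as high. Tfrc, the transferrin receptor, read 4.65 with lenvatinib, 4.53 with sorafenib and 4.68 in control, with sorafenib the low array. Its sorafenib difference from control was -0.15, and 36.1% of all genes were at least as far apart. The mean of Tfrc was reached by 36.5% of negative control features.

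Blvrb, biliverdin reductase B, which reduces biliverdin and flavins and is abundant in red cells, was the gene of the 10 furthest from control. It read 3.12 with lenvatinib, 3.00 with sorafenib and 3.52 in control. Both drug arrays were lower than control, with differences of -0.40 for lenvatinib and -0.52 for sorafenib. Among all genes, 12.2% were as far apart with lenvatinib and 6.46% with sorafenib. Both differences share the control array. The mean signal of Blvrb was reached by 84.8% of negative control features, so the difference lies in the range where the arrays give no signal above background.

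The lenvatinib array was compared with the control array over the 10 genes, counting a gene as higher or lower when the arrays differed by over 0.05 on the log2 scale. Alas2 and Slc25a37 were higher, which makes 2 genes, where 29.1% of all 15037 genes were higher. Urod and Blvrb were lower, again 2 genes, against 28.8% of all genes, and the other 6 were within 0.05, against 42.0% of all genes. Of these 6, Fth1 and Ftl1 were held there by the ceiling, which leaves 4 of the 8 genes below it within 0.05. At a threshold of 0.32 on the log2 scale, 1 gene was higher, Slc25a37, against a background of 8.52%, and 1 was lower, Blvrb, against 8.55%. The median difference of the 10 genes was 0, as it was for all genes. Both called shares are close to those of all genes.

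Sorafenib-loaded platelets were compared with control platelets in the same way. Ppox alone was higher, 1 gene of 10, against 28.6% of all genes, and Urod, Blvrb and Tfrc were lower, 3 genes, against 28.3%. The other 6 were within 0.05, against 43.0% of all genes, again with both ferritin genes held by the ceiling and 4 of the other 8 genes within 0.05. At the 0.32 threshold, 0 of the 10 were higher, against 8.05% of all genes, and Blvrb was lower, 1 gene, against 8.5%. The median difference was 0.

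The 2 drugs, given at the same mass and for the same time, were compared directly. Alas2, Blvrb, Slc25a37 and Tfrc were higher with lenvatinib than with sorafenib, 4 genes of 10, against 28.2% of all genes, and 0 were lower, against 27.1%. The differences were 0.16 for Alas2, 0.12 for Blvrb, 0.35 for Slc25a37 and 0.12 for Tfrc. The other 6 genes were within 0.05, against 44.8% of all genes, and these too were both ferritin genes at the ceiling and 4 of the other 8. Of the 4 genes that were higher, Alas2 alone was above the background limit. Slc25a37 was the 1 gene higher by at least 0.32, against 7.57% of all genes, and 0 were lower by that much, against 7.58%. The median difference of the 10 genes was 0.022, and that of all genes was 0. None of the 10 was 1.5-fold apart in any of the 3 comparisons, where 5.05% of all genes were for lenvatinib minus control, 4.43% for sorafenib minus control and 3.89% for lenvatinib minus sorafenib.

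**Figure D2:**
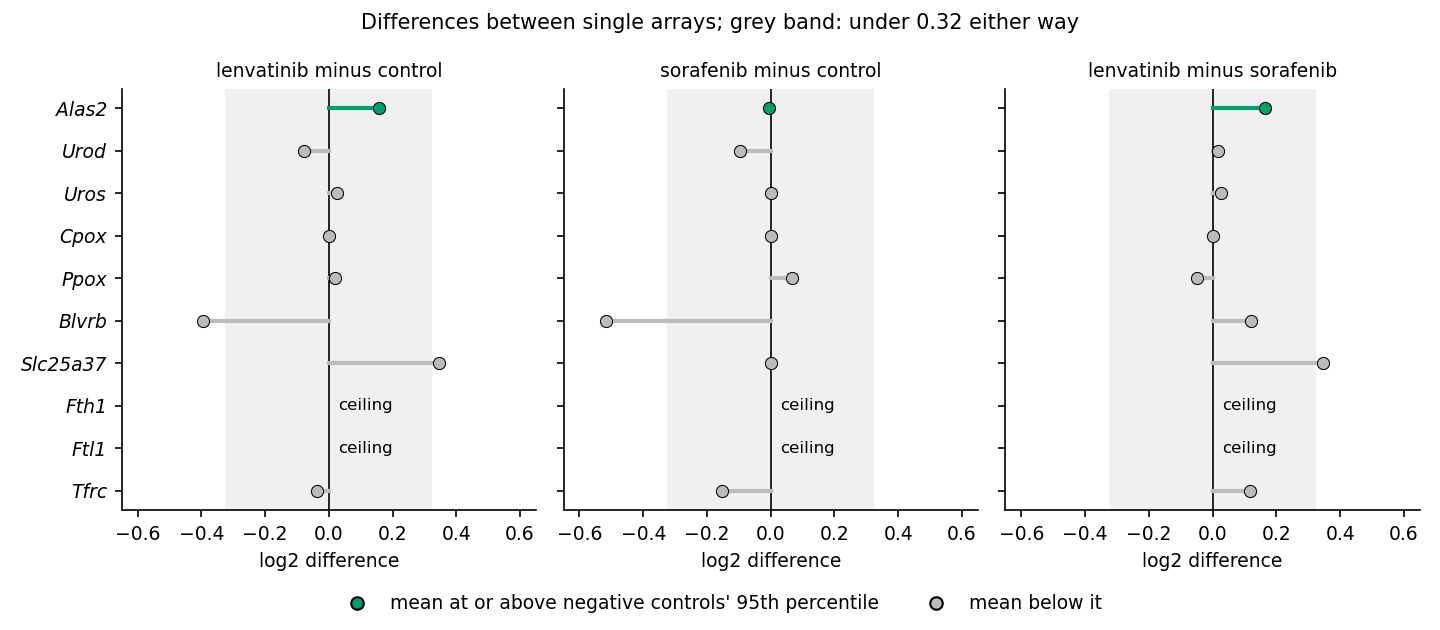
Log2 difference (horizontal axes) of each of the 10 genes for lenvatinib minus control, sorafenib minus control and lenvatinib minus sorafenib, each between single arrays. Green points are genes with a mean at or above the background limit, grey points are genes below it, and the grey band marks differences under 0.32. Blvrb at -0.40 and -0.52 and Slc25a37 at 0.35 are the points outside the band, and both genes are below the background limit.

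The rest of the heme synthesis pathway and its mitochondrial transporters was described from a list of 10 further genes, of which 9 were measured. The genes named here from this and the other gene and marker lists were chosen after their values were seen, except Cisd2, Slc4a1 and S100a9, which met a rule of a difference from control of at least 0.32 above the background limit. With lenvatinib 3 of the 9 were higher than control and 3 lower, where 29.1% of all genes were higher and 28.8% lower. With sorafenib 1 was higher and 3 lower, where the shares of all genes were 28.6% and 28.3%. Above the background limit were 3 of the 9. Of these, 1 was higher and 1 lower with lenvatinib, and 0 higher and 1 lower with sorafenib. Among the 1961 genes above the limit, 672 were higher and 612 lower with lenvatinib, and 614 and 612 with sorafenib. Fech, ferrochelatase, which inserts iron into the ring, read 8.93 with lenvatinib and 8.80 both with sorafenib and in control. The lenvatinib array was the high one for Fech, by 0.12, and 49.0% of the 1961 genes above the background limit were at least that far apart from control. Tmem14c, a mitochondrial porphyrin transporter, read 8.77 with each drug and 9.01 in control, and Abcb6, a porphyrin transporter, read 9.80 on all 3 arrays. No other gene of the list reached the background limit. Below it, Clpx, a mitochondrial unfoldase that activates aminolevulinate synthase, read 4.56 with lenvatinib, 4.84 with sorafenib and 3.83 in control. Slc25a39, a mitochondrial glutathione carrier, read 7.09, 7.36 and 7.65 in the same order of arrays. Alas1, the form of aminolevulinate synthase used outside red cells, read 3.80 with each drug and 3.87 in control, within the background.

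Heme breakdown and export gave no signal above the limit: 0 of 6 measured genes reached it. Hmox1, the inducible heme oxygenase, read 5.00 with lenvatinib, 4.76 with sorafenib and 4.64 in control. Hmox2, the constitutive form, read 5.40, 5.30 and 5.72 in that order. The lenvatinib array was thus the high one for Hmox1, and control was the high one for Hmox2. With lenvatinib 2 of the 6 were higher than control and 3 lower, against 29.1% and 28.8% of all genes. With sorafenib 3 were higher and 2 lower, against 28.6% and 28.3%.

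Iron handling was described by 18 measured genes of 21, of which 5 were above the background limit. Slc40a1, ferroportin, the iron exporter, read 19.13 with lenvatinib, 19.16 with sorafenib and 19.21 in control. Its signal was below the ceiling on all 3 arrays, which differed by less than 0.1. Ncoa4, the receptor that delivers ferritin to lysosomes, read 14.45 on all 3 arrays. Cybrd1, a ferric reductase, read 10.87 with lenvatinib, 10.88 with sorafenib and 10.90 in control. Pcbp2, an iron chaperone and RNA-binding protein, read 15.37, 15.59 and 15.38, with sorafenib the high array. Bach1, the heme-sensing repressor of ferritin and heme oxygenase genes, read 9.61 with lenvatinib, 9.58 with sorafenib and 9.30 in control. Both drug arrays were above control for Bach1, by 0.31 with lenvatinib and 0.28 with sorafenib, just under the 0.32 threshold. Both differences share the control array. Of the 1961 genes above the limit, 19.2% with lenvatinib and 15.6% with sorafenib were past that threshold in either direction. Over the 18 genes, 4 were higher and 4 lower with lenvatinib, against 29.1% and 28.8% of all genes. With sorafenib 5 were higher and 4 lower, against 28.6% and 28.3%, and both medians were 0. The iron regulatory proteins, Aco1 at 3.95, 3.92 and 3.95 and Ireb2 at 6.16 on all 3 arrays, were below the limit.

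Genes of iron-sulfur cluster assembly, the other large use of mitochondrial iron, were measured for 16 of 20 listed. Iscu, the scaffold protein, read 14.30 with lenvatinib, 14.24 with sorafenib and 14.26 in control, and Isca1 read 14.24 with each drug and 14.20 in control. Cisd2, an iron-sulfur protein of the endoplasmic reticulum, read 7.84 with lenvatinib, 7.53 with sorafenib and 7.92 in control. At -0.39 for sorafenib minus control, it was the 1 gene past the 0.32 threshold among the 11 further heme and iron genes above the background limit, where 15.6% of the 1961 genes above the limit were past it in either direction. Its mean passed the limit, and its sorafenib reading was below it. With lenvatinib 3 of the 16 were higher and 8 lower, at a median of -0.05, against 29.1% and 28.8% of all genes. With sorafenib 5 were higher and 6 lower, at a median of -0.01, against 28.6% and 28.3%. The 3 named genes were those above the background limit, and of these 0 were higher and 1 lower in each comparison with control. Among the 1961 genes above the limit, 672 were higher and 612 lower with lenvatinib, and 614 and 612 with sorafenib. Most of the counts over the 16 genes thus come from genes below the limit.

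Red-cell RNA can be present in a platelet preparation, and its markers were set beside Alas2. That red-cell genes were higher with lenvatinib was known from these data when the list was chosen. Its counts therefore give no independent support. Of 16 measured red-cell and reticulocyte markers of 23 listed, 9 were higher and 0 lower with lenvatinib than in control, where 29.1% of all genes were higher and 28.8% lower. With sorafenib, 5 were higher and 4 lower than in control, against 28.6% and 28.3% of all genes. With lenvatinib against sorafenib, 10 were higher and 1 lower, against 28.2% and 27.1% of all genes. Of the 9 higher with lenvatinib than in control, 5 lay below the background limit: Ahsp, Epb42, Epor, Rhd and Kel. Above the limit were 9 of the 16 markers. Among these 9, 4 were higher and 0 lower with lenvatinib than in control, where 672 of the 1961 genes above the limit were higher and 612 lower. With sorafenib 2 of the 9 were higher and 3 lower than in control, against 614 and 612 of the 1961 genes. With lenvatinib against sorafenib 5 of the 9 were higher and 1 lower, against 671 and 530 of the 1961. The log2 signals of the 9 summed to 116.0 with lenvatinib, 115.1 with sorafenib and 114.7 in control, and those of the 7 below the limit to 37.6, 34.8 and 34.6 in the same order. Most of the difference between lenvatinib and control in the summed signal of the 16 thus came from markers below the limit, and among the 9 above it Slc4a1 alone contributed 0.85. Slc4a1, the anion exchanger of the red-cell membrane, read 8.78 with lenvatinib, 8.23 with sorafenib and 7.93 in control. Rhag, of the Rh complex, read 16.98, 16.86 and 16.82, and Hbb-b1, a beta globin gene, read 14.21, 13.90 and 14.00. For Slc4a1, Rhag and Hbb-b1, as for Alas2, the lenvatinib array was the high one. Other markers above the limit differed little: Sptb read 9.76 on all 3 arrays. Hba-a3 read 10.22 with lenvatinib, 10.16 with sorafenib and 10.22 in control, and Bpgm read 8.36, 8.33 and 8.31. Hemgn, a red-cell nuclear protein, read 9.08, 9.35 and 9.07 in that order, with sorafenib the high array. Hbb read 18.68 with lenvatinib, 18.56 with sorafenib and 18.63 in control, and Hba-a1 was at the ceiling on all 3 arrays. Klf1, a red-cell transcription factor, was at 3.16 on all 3 arrays, within the background. Near-identical globin copies make single globin readings uncertain. The part of red-cell RNA in the Alas2 difference was not tested.

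**Figure D3:**
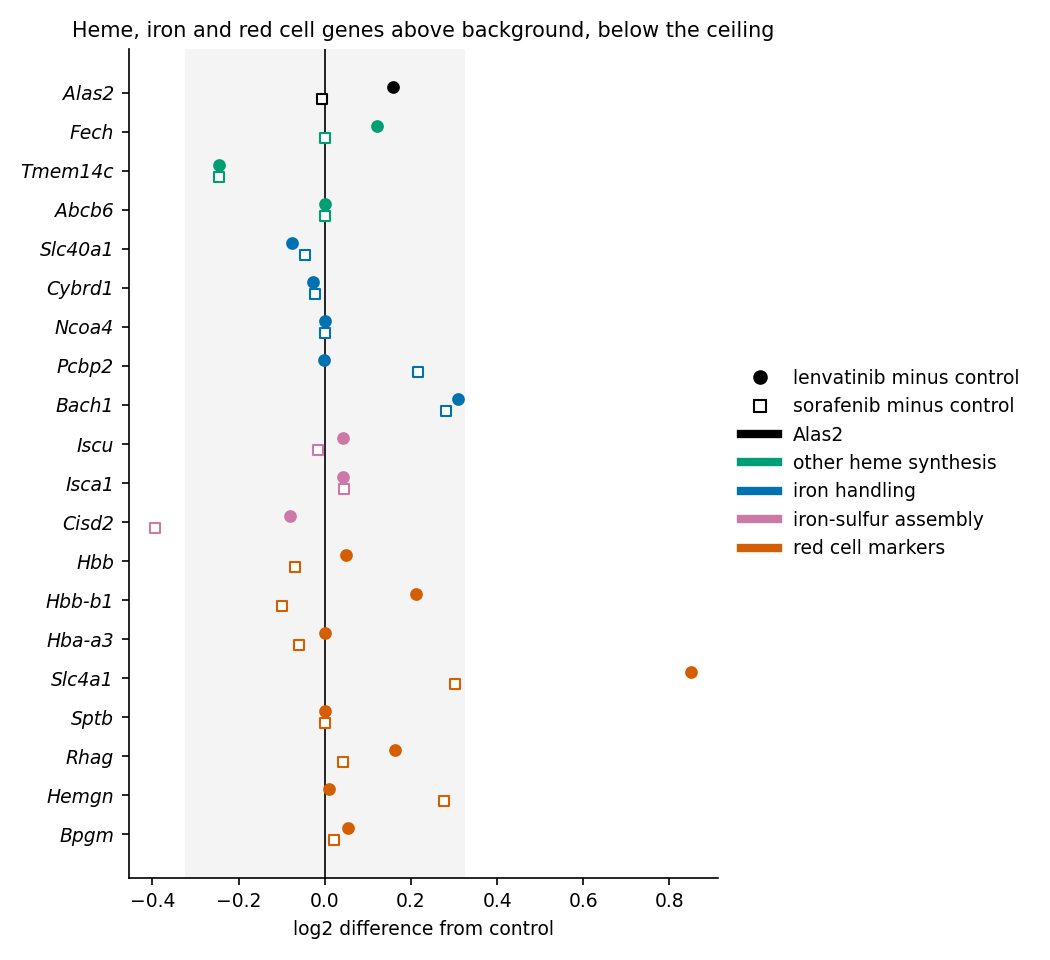
Log2 difference from the control array (horizontal axis) for genes of the heme, iron, iron-sulfur and red-cell lists with a mean at or above the background limit and below the ceiling. Filled circles are the lenvatinib array, open squares are the sorafenib array, colours mark the list, and the shaded band marks differences under 0.32. Slc4a1 with lenvatinib, at 0.85, and Cisd2 with sorafenib, at -0.39, lie outside the band. Of the 1961 genes above the limit, 19.2% with lenvatinib and 15.6% with sorafenib were past 0.32 in either direction.

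Markers of other blood cells mostly gave signals below the background limit. Of 10 macrophage and monocyte markers 1 was above the background limit, Lyz2, lysozyme, at 15.34 with lenvatinib, 15.37 with sorafenib and 15.13 in control. Cd163, the receptor that takes up hemoglobin, read 3.42 with lenvatinib and 3.54 both with sorafenib and in control, within the background. Of 9 measured neutrophil markers 1 was above the limit, S100a9, at 7.88 with lenvatinib, 7.97 with sorafenib and 8.37 in control. S100a8, below the limit, went the other way, at 6.46 with each drug and 5.93 in control. With lenvatinib 4 of the 9 were higher than control and 4 lower, against 29.1% and 28.8% of all genes. With sorafenib 5 were higher and 4 lower, against 28.6% and 28.3%. Lymphocyte markers had 0 of 6 above it. The mean log2 signals of the 3 lists, with lenvatinib, sorafenib and control in that order, were 5.18, 5.25 and 5.26 for macrophages and monocytes, 4.37, 4.38 and 4.31 for neutrophils, and 4.46, 4.40 and 4.44 for lymphocytes.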

How the data were processed

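Total RNA of pooled rat platelets was measured on 3 arrays, 1 per group. The values of 23188 features are log2 signals, as deposited by the authors. The methods of background correction, probe summary and normalization are not stated in the labels or file headers. A second table, the series value table, also log2 and deposited, equalled it within 5.0e-05 and added 1646 control features. Arrays were grouped by the labels' source name. Platform annotation named 15049 features, and the feature with the highest mean was kept per gene, which left 15037 genes. All 10 gene IDs were found in the RefSeq table of GRCr8 with 0 symbols changed, and no coordinates are given for features. The 10 genes and the lists were chosen with earlier results of these data known, among them that red-cell genes were higher with lenvatinib, so the lists give no independent support.

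Differences were taken between single arrays, lenvatinib minus control, sorafenib minus control and lenvatinib minus sorafenib, with no test, since there are no replicates; the number of arrays limits the precision. From the other lists, genes above the background limit and at least 0.32 from control on the log2 scale were to be named, at most 4 per list, which gave Cisd2, Slc4a1 and S100a9. Genes of like pattern were to be named for any of the 10 that met the same condition, and 0 did. Alternatives were median centring, quantile and cyclic loess normalization (limma 3.58.1 in R 4.3.3), the mean of features, the series value table, thresholds of 1.5-fold and 2-fold, other filters, and means for medians. Steps were run in Python 3.11.15 and tested on simulated arrays.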

Additional observations from a re-analysis of the deposited data

How the results depend on the processing

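The counts of genes higher, lower and past the 0.32 threshold among the 10, and their medians, stayed within 1.5 times or 0.05 of the values given under median centring, quantile and cyclic loess normalization, the mean of features and the series value table, in all 3 comparisons. Other filters moved the counts by leaving out genes. Among the 3 genes above the background limit, 1 was higher and 0 lower with lenvatinib against control, against 672 and 612 of the 1961. With sorafenib against control 0 were higher and 0 lower, against 614 and 612. With lenvatinib against sorafenib 1 was higher and 0 lower, against 671 and 530. Of the 3, 0 were past the 0.32 threshold in any comparison. At 1.5-fold and at 2-fold, 0 of the 10 were apart in either direction in any comparison. Taking means instead of medians over the 10 gave -0.0705 for sorafenib minus control and 0.0742 for lenvatinib minus sorafenib, and without the 2 ceiling genes the median of lenvatinib minus sorafenib was 0.0723. For the direction of Alas2 with sorafenib, cyclic loess gave 0.01 in place of -0.01, so that no direction can be read. With lenvatinib minus control Alas2 was 0.16 as deposited and between 0.11 and 0.16 under the scalings, and the red-cell markers higher than control with lenvatinib numbered 8 to 10, with 0 lower.

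Over genes at or above the median signal, 1505 were past the 0.32 threshold for lenvatinib minus control, 1395 for sorafenib minus control and 1266 for lenvatinib minus sorafenib. Without a filter these counts were 2567, 2489 and 2279, above the background limit 377, 305 and 290, at 1.5-fold 473, 397 and 346, and at 2-fold 49, 44 and 29. No paired analysis was possible because each group has 1 array. Signal limits the readings: 7 of the 10 genes lay below the background limit and 2 were at the ceiling.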
